A study of Mus musculus with 4 samples.

Results

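Cholesterol and fatty acids are built from the same acetyl-CoA, and the genes of both routes were followed here in the brains of mouse embryos in which Cre deletes the transcription factor genes Sox4 and Sox11. The set held 32 genes chosen by name: enzymes of cholesterol synthesis, genes that control or carry sterols, and enzymes of fatty acid synthesis. Probe sets belonged to the set when the array's annotation gave exactly 1 of these symbols, which found 72 of the 45037 probe sets that are not array controls, from 31 of the 32 genes. Acat2, the acetoacetyl-CoA thiolase of the cytosol, was not analysed here. After a filter on low signal 59 of the 72 probe sets were tested, and each of the 31 genes kept at least 1. Across the whole array 27022 probe sets were tested, from 12489 named genes.

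The double-knockout embryos carried Brn4::Cre with floxed alleles of Sox4 and of Sox11 on both chromosomes, and the controls carried the same floxed alleles without the Cre. Brn4 is an older name of Pou3f4, a POU-domain gene of the neural tube, so recombination depends on where that driver is active. Both groups were on a mixed 129SvJ/C57Bl/6J background at embryonic day 14.5, and RNA came from the entire brain according to the sample labels, although the title of the series speaks of spinal cord. There were 2 arrays of each genotype, called biological replicates in the labels, which give neither the number of embryos behind an array nor their sex. The p-values therefore rest on the spread between these arrays, which may be partly technical, and largely on variance estimated over all probe sets tested. The number of arrays limits every statement below.

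Cells make cholesterol from acetyl-CoA through mevalonate, isoprenoid diphosphates, squalene and lanosterol, and then trim lanosterol stepwise to cholesterol. Fatty acids are made by carboxylation of acetyl-CoA and repeated condensation, followed by elongation and by desaturases that place double bonds. Both routes are switched on by SREBP transcription factors, membrane proteins that Scap escorts to the Golgi for cleavage when sterols are scarce and that Insig proteins hold back when sterols are plentiful. SREBP-2, from Srebf2, acts mainly on the cholesterol route and SREBP-1c, from Srebf1, mainly on fatty acids. The fetal brain makes its own cholesterol as the blood-brain barrier forms, and growing neurites, dividing progenitors and glia all draw on it.

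Signals are the authors' MAS5 values on a linear scale, and a log2 change is the double-knockout mean minus the control mean of log2(signal + 16). A gene is said to have risen or fallen where its brightest probe set had an adjusted p under 0.05 in limma, with Benjamini-Hochberg adjustment over all 27022 probe sets, and every adjusted p below comes from that fit. Median signals were 263 and 269 on the double-knockout arrays and 287 and 262 on the control arrays. The labels were checked on the targeted genes. At the brightest Sox11 probe set the signal was 10306 and 9491 in double-knockout brains, against 25451 and 26097 in control brains (log2 change -1.38 ± 0.07, SE; limma adjusted p = 2.96e-06). Each of the other Sox11 probe sets fell too, by 1.19 to 3.18 on the log2 scale. Of 6 tested Sox4 probe sets 4 fell, the most by 2.69 on the log2 scale, with 2077 and 2516 in double-knockout brains, against 15114 and 14671 in control brains. Another Sox4 probe set rose (1.83), and the brightest read 37277 and 38263 in double-knockout brains, against 36048 and 34819 in control brains (0.09). Which Sox4 probe sets lie in the deleted part is not known here, and one outside it checks nothing. Some cell type markers differed between the genotypes: the summed signal of 9 tested microglia and macrophage markers was 26262 and 24747 in double-knockout brains, against 7245 and 8071 in control brains. That of 10 neuronal markers, of which 1 rose and 7 fell, was 111163 and 108339 in double-knockout brains, against 141099 and 147482 in control brains. Markers of dividing cells rose at 6 of 9 genes, of endothelium at 5 of 8, of mesenchyme and meninges at 4 of 8 and of radial glia at 4 of 10, with no fall. Oligodendrocyte markers gave 2 rises and 1 fall among 7, choroid plexus markers 2 and 1 among 5, and none of 3 red blood cell markers was called. In whole tissue, fewer cells of a type and less RNA per cell cannot be told apart, and the part these markers play in the results below was not tested.

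Genes of the set were called at about the share of all genes, and the set did not move one way. A gene that did not pass is not thereby shown to be unchanged. Of the 31 genes, 5 rose, 3 fell and 23 did not pass. The 8 called are 25.8% of the set, close to the 27.3% called over all 12489 genes, where 16.3% rose and 11% fell. The median log2 change of the 31 genes was -0.02, beside 0.06 over all genes. Sterol control and transport genes gave 2 rises and no fall among 6, with a median of 0.24. Fatty acid genes gave 2 falls and no rise among 8, with a median of -0.22. Sterol synthesis enzymes gave 3 rises and 1 fall among 17, with a median of -0.01. Whether the branches differ from each other was not tested, since genes are not replicates of a genotype. Fewer genes of the set were called with any 1 array left out, and fewer probe sets over the whole array too. Such a fit has 1 array in a genotype and less power, so a lost call does not show that a change rests on that array. Medians in these fits were 0.18 to 0.32 for sterol control and transport genes. They were -0.29 to -0.11 for fatty acid genes and -0.05 to 0.02 for sterol synthesis enzymes.

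**Figure D1:**
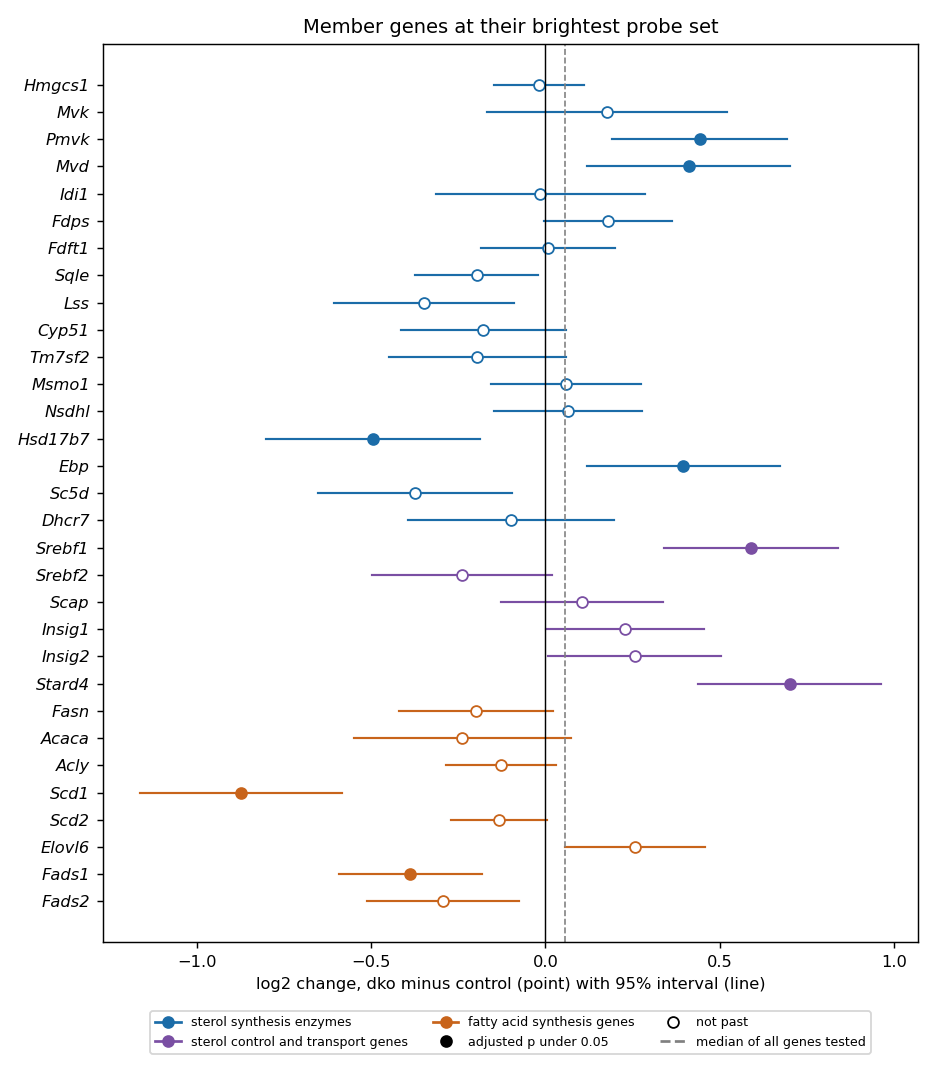
Log2 change of each of the 31 tested genes at its brightest probe set (point, double knockout minus control) with its 95% interval (line), in pathway order from top to bottom and coloured by branch. Filled points passed an adjusted p of 0.05; the dashed line is the median of all genes tested, 0.06. Scd1 lies lowest at -0.87 and Stard4 highest at 0.70, and 7 of the 8 fatty acid genes lie left of 0. Of all genes tested, which are not drawn, 56.8% had a change above 0.

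Among sterol control and transport genes Stard4 and Srebf1 rose, with the highest log2 changes of the set, and the other 4 did not pass. Stard4, a soluble protein that moves cholesterol between membranes, had signals of 1912 and 1705 in double-knockout brains, against 1109 and 1101 in control brains. Both double-knockout arrays lay above both control arrays, a rise of 1.63-fold (log2 change 0.70 ± 0.12, SE; 95% interval 0.44 to 0.96; limma adjusted p = 0.00246). A second Stard4 probe set rose by almost as much, with 1444 and 1711 in double-knockout brains, against 997 and 951 in control brains (log2 change 0.68, adjusted p = 0.00443). The dimmest of the 3 also had separate groups but did not pass (0.37, adjusted p = 0.196). Separate groups were common, at 66.9% of all genes tested.

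Srebf1, which encodes the SREBP-1 proteins, had signals of 2229 and 2017 in double-knockout brains, against 1375 and 1433 in control brains. The groups were apart, and the rise was 1.5-fold (log2 change 0.59 ± 0.11, SE; 95% interval 0.34 to 0.84; limma adjusted p = 0.00448). Its single probe set does not separate the SREBP-1a and SREBP-1c transcripts here. Srebf2, the sterol-route partner, read 1257 and 1200.4 in double-knockout brains, against 1415 and 1492 in control brains. Its groups were apart in the other direction, but the change did not pass (log2 change -0.24, 95% interval -0.50 to 0.02, adjusted p = 0.169), nor did its dimmer probe set (-0.08).

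The proteins that gate SREBP movement did not pass. Scap, the escort, had a log2 change of 0.11 with overlapping groups. Insig1, an anchor that is itself a target of SREBPs, read 2755 and 3114 in double-knockout brains, against 2492 and 2503 in control brains (0.23, adjusted p = 0.136). Insig2, its paralog, read 2363 and 2612 in double-knockout brains, against 1950.2 and 2213 in control brains at the brightest of 3 probe sets (0.26, adjusted p = 0.126). At its dimmest probe set the groups overlapped, with 870.4 and 927 in double-knockout brains, against 991 and 825 in control brains (-0.01), so the Insig2 probe sets do not give 1 direction.

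**Figure D2:**
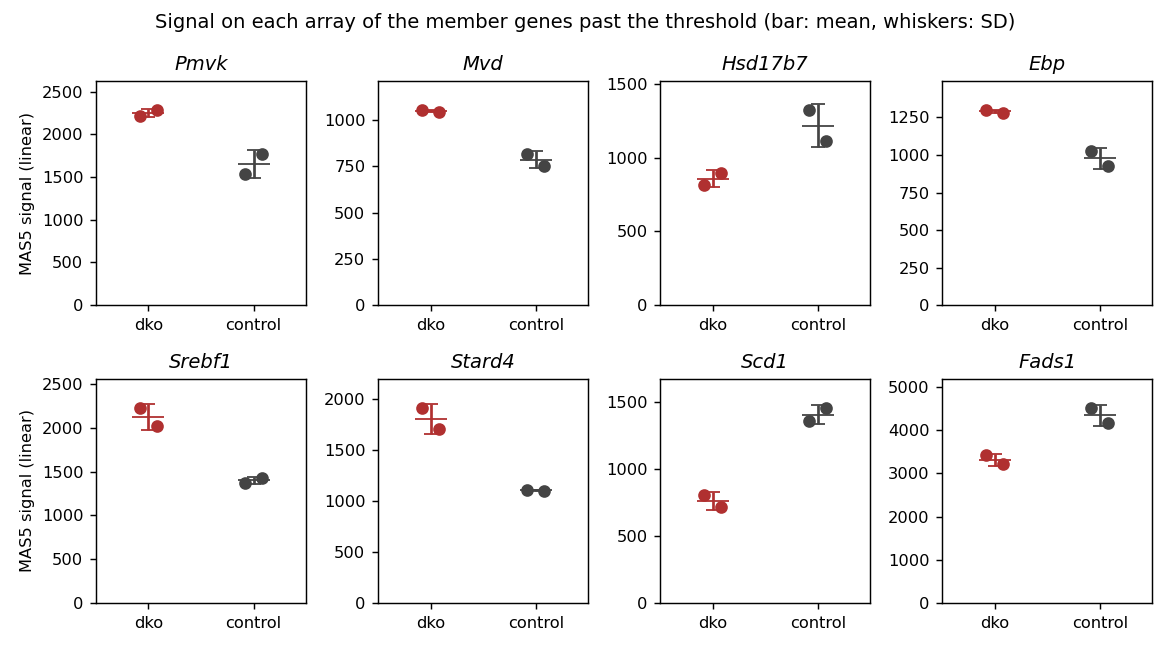
MAS5 signal (linear scale, from 0) of the 8 genes past the threshold on each array: double knockout (dko, red, left) and control (grey, right), with the mean (bar) and SD (whiskers) of 2 arrays. In every panel the arrays of the genotypes are apart, as they are for 66.9% of all genes tested. The panels were chosen by the threshold on these same arrays, so this separation adds no support. Hsd17b7, Scd1 and Fads1 are lower and the other 5 higher in double-knockout brains.

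In the sterol route the early, mevalonate-handling steps included 2 of the 3 enzymes that rose. Hmgcs1, which makes HMG-CoA, read 23007 and 24151 in double-knockout brains, against 23771 and 23977 in control brains. The groups overlapped, and the interval of the change was narrow (log2 change -0.02, 95% interval -0.15 to 0.11). The 3 next Hmgcs1 probe sets gave log2 changes of -0.07 to -0.0034. Its dimmest fell, with 263 and 281 in double-knockout brains, against 463 and 411 in control brains (-0.65, adjusted p = 0.0326).

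Pmvk, the phosphomevalonate kinase, read 2220 and 2282 in double-knockout brains, against 1540 and 1773 in control brains. It rose 1.36-fold with the groups apart (log2 change 0.44 ± 0.11, SE; limma adjusted p = 0.0187). Mvd, the mevalonate diphosphate decarboxylase that acts next, read 1052 and 1043 in double-knockout brains, against 816 and 752 in control brains. Mvd rose 1.33-fold (0.41 ± 0.13, SE, limma adjusted p = 0.0459). The identifier of this probe set carries an s, so it can detect related transcripts. The second Mvd probe set, without x or s, did not pass (0.34, limma adjusted p = 0.14). Mvk, the kinase before Pmvk, had a log2 change of 0.18 (adjusted p = 0.452) with overlapping groups, and 0.44 with separate groups at its dimmer probe set, which did not pass either (adjusted p = 0.0893). The Pmvk call was lost without control 1 (0.34), double knockout 1 (0.46) or double knockout 2 (0.42). The Mvd call was lost whichever array was left out, with log2 changes at the same probe set of 0.47 without control 1, 0.35 without control 2, 0.41 without double knockout 1 and 0.42 without double knockout 2.

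None of the isoprenoid and squalene steps passed. Idi1, the isopentenyl diphosphate isomerase, spread more between replicates than between genotypes, with 4633 and 6525 in double-knockout brains, against 5640 and 5467 in control brains (log2 change -0.01). Its other probe set read 2488 and 3104 in double-knockout brains, against 2748 and 2504 in control brains (0.08). Fdps, which makes farnesyl diphosphate, read 6583 and 6060 in double-knockout brains, against 5488 and 5655 in control brains (0.18, adjusted p = 0.144). Fdft1, the squalene synthase, had a log2 change of 0.01 and Sqle, the squalene epoxidase, one of -0.20 (adjusted p = 0.0999). Sqle read 5287 and 5461 in double-knockout brains, against 6122 and 6207 in control brains, with the groups apart.

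From lanosterol onward the changes ran both ways. Lss, the lanosterol synthase, read 1196.4 and 1197 in double-knockout brains, against 1574 and 1481 in control brains, and just missed the threshold (log2 change -0.35, 95% interval -0.61 to -0.09, adjusted p = 0.0537). Hsd17b7, the 3-ketosteroid reductase of the pathway, fell to 817 and 899 in double-knockout brains, against 1321 and 1114 in control brains. That is 1.41-fold lower (-0.49 ± 0.14, SE; limma adjusted p = 0.0273), and another probe set fell too (-0.64, adjusted p = 0.0333). The Hsd17b7 call was lost without control 1 (-0.37), double knockout 1 (-0.43) or double knockout 2 (-0.56). Ebp, the sterol isomerase that follows, read 1298 and 1283 in double-knockout brains, against 1027 and 929 in control brains. It rose 1.32-fold (0.40 ± 0.12, SE; limma adjusted p = 0.0435), a call lost without control 1 (0.47), control 2 (0.33), double knockout 1 (0.39) or double knockout 2 (0.40).

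Sc5d, the desaturase after Ebp, had probe sets that disagree. At the brighter it read 1377 and 1311 in double-knockout brains, against 1597 and 1909 in control brains (log2 change -0.37, adjusted p = 0.0539), which became a fall without control 1 (-0.50, adjusted p = 0.0286). At the other it read 1424 and 1386 in double-knockout brains, against 1255 and 1523 in control brains (0.02). Cyp51, the lanosterol demethylase, likewise read 3107 and 3746 in double-knockout brains, against 3832 and 3890 in control brains (-0.18, adjusted p = 0.259), with 342 and 339.9 in double-knockout brains, against 353 and 284 in control brains at its dimmest probe set (0.10). For Sc5d and Cyp51 no direction can be given. Tm7sf2, a sterol reductase, had a log2 change of -0.20. Dhcr7, which reduces a ring double bond in the last step of 1 route to cholesterol, had one of -0.10. Msmo1 and Nsdhl, which demethylate the sterol ring, had changes of 0.06 each. Of the 13 sterol enzymes that did not pass, adjusted p ranged over 0.0537 to 0.966, and their 95% intervals stayed within -0.65 and 0.52.

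The fatty acid branch held the largest change of the set. Scd1, a delta-9 desaturase that makes monounsaturated fatty acids, fell to 807 and 714 in double-knockout brains, against 1355 and 1454 in control brains. The arrays of the genotypes were far apart, and the fall was 1.83-fold (log2 change -0.87 ± 0.13, SE; 95% interval -1.16 to -0.58; limma adjusted p = 0.00128). A dimmer Scd1 probe set that was too low to be tested read 125 and 128 in double-knockout brains, against 152 and 156 in control brains. Scd2, the delta-9 desaturase that dominates in the mouse brain, had a log2 change of -0.13 at its brightest probe set (95% interval -0.27 to 0.01, adjusted p = 0.152). There Scd2 read 21965 and 21566 in double-knockout brains, against 23000 and 24738 in control brains. A second Scd2 probe set overlapped between genotypes, with 2488 and 2733 in double-knockout brains, against 2743 and 2409.7 in control brains (0.02), and the dimmest read 142 and 199.7 in double-knockout brains, against 236 and 194 in control brains (-0.32). The fall of Scd1 thus had no counterpart past the threshold at any Scd2 probe set, and the difference between the paralogs was not tested.

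Fads1, the delta-5 desaturase of polyunsaturated fatty acids, fell to 3416 and 3211 in double-knockout brains, against 4513 and 4168 in control brains. It was 1.31-fold lower (log2 change -0.39 ± 0.09, SE; limma adjusted p = 0.0139), with the groups apart at its other probe set as well (-0.38, adjusted p = 0.102). The Fads1 call was lost without control 1 (-0.33) or double knockout 2 (-0.34). Fads2, the delta-6 desaturase of the same route, read 2635 and 2688 in double-knockout brains, against 3430.3 and 3105 in control brains, just missing the threshold (-0.29, adjusted p = 0.055). All 3 Fads2 probe sets had separate groups with the double knockout lower (-0.27 to -0.44), and none passed.

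At their brightest probe sets, the enzymes that make the carbon chain gave no call. Acly, which supplies cytosolic acetyl-CoA from citrate, read 9345 and 8934 in double-knockout brains, against 9965 and 10011 in control brains (log2 change -0.13, adjusted p = 0.224). A dimmer Acly probe set fell, with 1992 and 1689.7 in double-knockout brains, against 2528 and 2298 in control brains (-0.39, adjusted p = 0.0368). Fasn, the fatty acid synthase, had a log2 change of -0.20 (adjusted p = 0.178) with 5113 and 4462 in double-knockout brains, against 5162 and 5834 in control brains. Acaca, the acetyl-CoA carboxylase, read 1973 and 1471 in double-knockout brains, against 1966 and 2061 in control brains (-0.24, adjusted p = 0.252), and its lower value came from double knockout 2 alone. Elovl6, which elongates saturated chains, was the 1 gene of the branch above 0, with 3893 and 3819.9 in double-knockout brains, against 3314 and 3138 in control brains (0.26, adjusted p = 0.0655). Its second probe set read 1646 and 1476 in double-knockout brains, against 1249 and 1461 in control brains (0.20), and the dimmest read 395 and 363 in double-knockout brains, against 435 and 404 in control brains (-0.14), so Elovl6 has no settled direction.

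**Figure D3:**
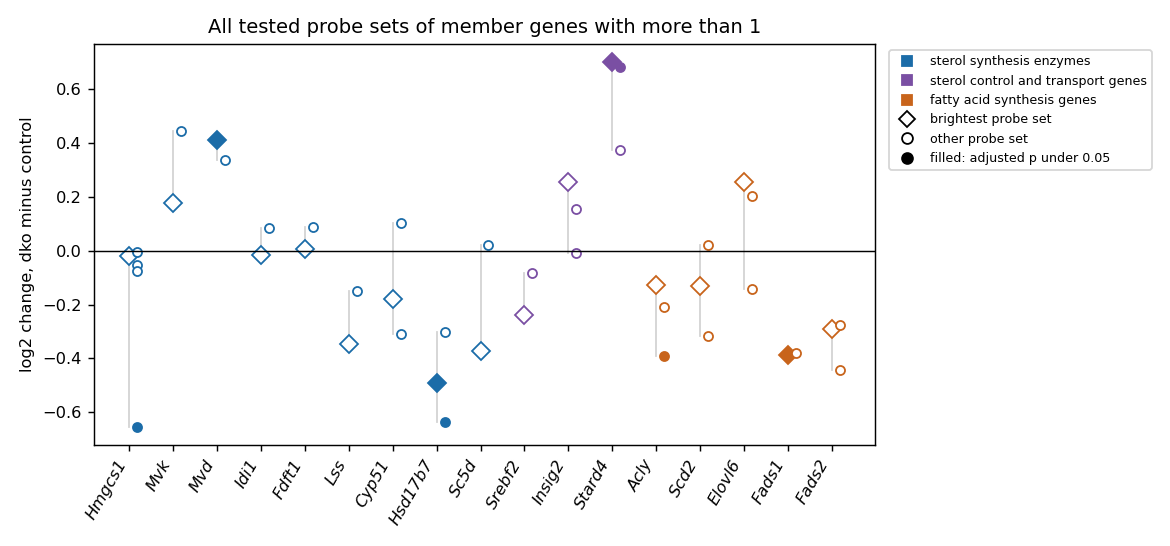
Log2 change (double knockout minus control) at each tested probe set of the 17 genes with more than 1, in pathway order and coloured by branch. Diamonds are the brightest probe set and circles the others; filled symbols passed. Probe sets of 11 genes stay on 1 side of 0 and those of 6 genes lie on both.

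Agreement between probe sets was partial. Of the 17 genes with several tested probe sets, 11 had all of them on 1 side of 0. The 6 with both signs were Idi1, Cyp51, Sc5d, Insig2, Scd2 and Elovl6, none of which was called at any probe set. Among the 8 called genes 4 had further tested probe sets, and for Stard4 and Hsd17b7 a second was called in the same direction. Hmgcs1 and Acly were called only at a dimmer probe set. On each double-knockout array 7 of the 8 fatty acid genes lay below the control mean, by a median of 0.11 (array 1) and 0.29 (array 2) on the log2 scale. For the 6 sterol control and transport genes 5 lay above it on each array, by a median of 0.18 and 0.32. For the sterol enzymes the arrays had medians of -0.05 and 0.02. Both arrays were set against the same control mean, so their counts are not separate checks. Shares on each array were not computed over all genes, of which 56.8% had a log2 change between genotype means above 0. Both double-knockout arrays lay on 1 side of both controls for 23 of the 31 genes, 10 higher and 13 lower. Over all genes 66.9% had separate groups, 39.8% with the double knockout higher and 27.2% with it lower.

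Upstream sequence was set beside these changes for the called genes that have an entry. RefSeq windows (GRCm38.p6) from 250 bases before to 50 bases after an annotated start were listed for 25 of the 32 genes, 33 windows in all, and for 5 of the 8 called genes. They are shown here because SREBPs are known to act with NF-Y and Sp1 at the promoters of this route. The motifs were searched on both strands: TCACNCCAC, a form of the sterol regulatory element; CCAAT, the NF-Y box, read as ATTGG on the other strand; GGGCGG, the Sp1 box, read as CCGCCC; and AACAAAG, a Sox motif. Each sequence runs 5′ to 3′ along the gene, and capitals mark every match. Hmgcs1, not called at its brightest probe set, is the 1 member whose windows hold TCACNCCAC. Where several windows are listed, the most upstream is printed.
Srebf1 (rose; chr11:60222532-60222831, minus strand): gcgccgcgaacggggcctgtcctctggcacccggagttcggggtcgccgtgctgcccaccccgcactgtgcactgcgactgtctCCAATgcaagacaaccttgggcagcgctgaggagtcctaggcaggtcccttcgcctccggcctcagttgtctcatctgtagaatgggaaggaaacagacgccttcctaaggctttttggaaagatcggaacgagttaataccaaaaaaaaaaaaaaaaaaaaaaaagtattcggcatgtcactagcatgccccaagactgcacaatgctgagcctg
Pmvk (rose; chr3:89454291-89454590, plus strand): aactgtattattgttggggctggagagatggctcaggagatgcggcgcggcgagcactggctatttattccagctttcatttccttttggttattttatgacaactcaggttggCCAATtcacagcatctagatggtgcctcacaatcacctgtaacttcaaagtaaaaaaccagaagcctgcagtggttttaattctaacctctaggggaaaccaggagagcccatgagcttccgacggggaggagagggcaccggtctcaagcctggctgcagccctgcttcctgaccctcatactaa
Mvd (rose; chr8:122443373-122443672, minus strand): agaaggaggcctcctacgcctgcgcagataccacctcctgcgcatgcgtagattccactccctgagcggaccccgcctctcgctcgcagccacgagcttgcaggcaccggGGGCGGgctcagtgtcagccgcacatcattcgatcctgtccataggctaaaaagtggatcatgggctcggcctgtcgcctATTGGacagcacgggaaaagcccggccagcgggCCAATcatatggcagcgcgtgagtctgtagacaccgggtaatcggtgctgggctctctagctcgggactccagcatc
Ebp (rose; chrX:8193463-8193762, minus strand): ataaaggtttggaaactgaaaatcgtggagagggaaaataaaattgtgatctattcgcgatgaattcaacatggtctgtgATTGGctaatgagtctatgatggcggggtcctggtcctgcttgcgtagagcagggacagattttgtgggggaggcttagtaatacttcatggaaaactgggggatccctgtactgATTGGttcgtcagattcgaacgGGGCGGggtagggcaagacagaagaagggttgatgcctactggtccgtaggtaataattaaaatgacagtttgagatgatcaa
Hsd17b7 (fell; chr1:169969156-169969455, minus strand): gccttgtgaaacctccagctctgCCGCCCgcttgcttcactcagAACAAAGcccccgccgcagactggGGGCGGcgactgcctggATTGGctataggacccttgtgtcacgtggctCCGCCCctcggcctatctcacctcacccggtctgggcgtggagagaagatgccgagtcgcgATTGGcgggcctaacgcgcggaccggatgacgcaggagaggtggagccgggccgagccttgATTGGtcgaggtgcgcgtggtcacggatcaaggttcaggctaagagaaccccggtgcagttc
Hmgcs1 (not called; chr13:119690101-119690400, plus strand): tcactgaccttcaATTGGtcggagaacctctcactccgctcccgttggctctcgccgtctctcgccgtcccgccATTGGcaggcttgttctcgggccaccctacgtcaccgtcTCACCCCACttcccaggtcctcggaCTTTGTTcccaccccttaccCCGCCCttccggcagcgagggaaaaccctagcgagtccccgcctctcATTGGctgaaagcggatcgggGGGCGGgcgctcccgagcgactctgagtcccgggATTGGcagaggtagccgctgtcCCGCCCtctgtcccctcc

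CCAAT stood in 21 of the 33 member windows (63.6%) and in 37.4% of all 32851 windows of the table. GGGCGG stood in 25 (75.8%) and in 35.7% of all windows, or 46.2% of those of protein-coding genes. TCACNCCAC was in 1 member window (3.03%) and 1.24% of all, and AACAAAG in 2 (6.06%) and 5.85%. Every printed window, of genes that rose, fell or were not called, holds CCAAT. Hsd17b7 and Hmgcs1 hold 3 and 4 matches of it, Mvd and Ebp 2 each, and Srebf1 and Pmvk 1 each. The AACAAAG matches lie in Hsd17b7, 206 bases before the start, and in Hmgcs1, 112 bases before it. A match is a string of letters and not a measured binding site, and a missing one says only that these letters are not in this window.

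Other genes of lipid supply were read from lists of 59 genes, of which 47 were tested. Of these 8 rose and 5 fell (27.7%), a share close to the 27.3% of all genes called. In sterol and isoprenoid synthesis outside the set, 1 of 6 was called at its brightest probe set. Over the 18 tested probe sets of these genes 2 rose and 1 fell, and both rises were at dimmer probe sets. Ggps1, which makes geranylgeranyl diphosphate, fell to 1141 and 1153 in double-knockout brains, against 1684 and 1624 in control brains (log2 change -0.52, adjusted p = 0.0091). That call was lost without double knockout 1 (-0.51), and with the gene's 4 probe sets averaged (-0.22). Dhdds (0.41, adjusted p = 0.0515), an enzyme of dolichol synthesis, and Coq2 (0.30), of ubiquinone synthesis, did not pass. None of 6 genes of SREBP processing and turnover was called at its brightest probe set. Mbtps1, the site-1 protease that first cuts SREBPs, came nearest (0.33, with an adjusted p just over the threshold). Its log2 change was 0.47 without double knockout 2, 0.19 without double knockout 1 and 0.14 with its probe sets averaged. Erlin1 (0.28), a membrane protein that binds SREBP complexes, followed.

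Genes of sterol export and uptake included larger changes than the synthesis route did. Of 12 tested, 3 rose and 1 fell. Abca1, which loads cholesterol onto apolipoproteins, read 9015 and 9442 in double-knockout brains, against 5549 and 5724 in control brains (log2 change 0.71, adjusted p = 0.000211). Apoe, the brain's main lipid carrier, which glia and macrophages make, read 5909 and 5184 in double-knockout brains, against 1380.1 and 1699 in control brains (1.84, adjusted p = 1.55e-05). Mylip, a ubiquitin ligase that degrades lipoprotein receptors, rose by 0.79 (adjusted p = 0.00457). Abca1, Mylip and Srebf1, which rose, are known targets of the liver X receptors, and so is Scd1, which fell (-0.87). Abca1, Mylip and Srebf1 were named from genes that rose, and no full list of such targets was read. A part of these receptors in any change was not tested. Abcg1 of the same list did not pass (0.31, limma adjusted p = 0.108). Npc1, which exports cholesterol from lysosomes, fell to 727 and 627 in double-knockout brains, against 957 and 963 in control brains (-0.50, adjusted p = 0.0288). The Mylip call was lost without double knockout 1 (0.75), and that of Npc1 without control 1 (-0.50), control 2 (-0.49), double knockout 1 (-0.60) or double knockout 2 (-0.39). The microglia and macrophage markers, all 9 of which rose (1.37 to 2.14 on the log2 scale), were brighter in double-knockout brains in sum, as given above, and their part in the Apoe and Abca1 changes was not tested.

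Fatty acid elongation and activation outside the set changed in both directions, with 5 rises and 3 falls among 23 tested genes. Elovl2, which elongates polyunsaturated chains on the way to docosahexaenoic acid, fell to 1215 and 1345 in double-knockout brains, against 3469.5 and 3249.7 in control brains. That is 2.61-fold lower (log2 change -1.38 ± 0.11, SE; limma adjusted p = 4.83e-05), a larger fall than that of any gene of the set. Thrsp, a small protein tied to lipogenesis in liver, rose to 384 and 422 in double-knockout brains, against 111 and 153 in control brains (1.51, adjusted p = 0.00196). Its control signals lie below the filter's cutoff of 154.6, so it was tested only through its level in double-knockout brains, and its other tested probe set did not pass (0.64, adjusted p = 0.115). Elovl1, an elongase of very long chains, read 1369 and 1257 in double-knockout brains, against 663 and 838 in control brains (0.80, adjusted p = 0.00371). Acss2, which makes acetyl-CoA from acetate, read 1175 and 1297 in double-knockout brains, against 727 and 863 in control brains (0.63, adjusted p = 0.00966). The other 4 called genes of the list had smaller changes, 2 up and 2 down.

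The Elovl1 call was lost without double knockout 1 (0.74, adjusted p = 0.0555) and that of Acss2 without double knockout 2 (0.56, adjusted p = 0.0865), at changes close to those over all arrays. Elovl2, Abca1 and Apoe kept theirs with each of the 4 arrays left out, as did Scd1, Srebf1 and Stard4 in the set. Thrsp, tested only through its level in double-knockout brains, kept its call in these fits with its probe set held. It lost the call without double knockout 1 when the brightest probe set was chosen anew (0.86).

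**Figure D4:**
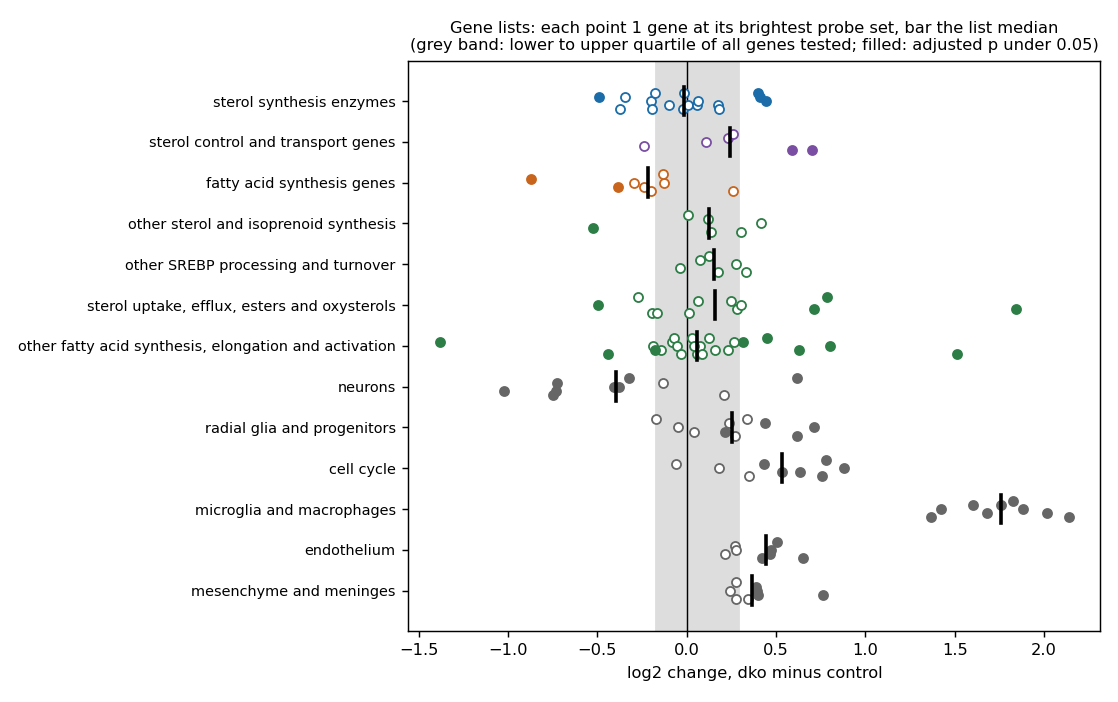
Log2 change (double knockout minus control) of each tested gene at its brightest probe set, by list; the black bar is the list's median, the grey band spans the lower to the upper quartile of all 12489 genes (-0.17 to 0.29), and filled points passed. The medians of the 3 groups of the set are -0.01, 0.24 and -0.22, those of the other lipid lists (green) 0.06 to 0.16, and among the marker lists (grey) the microglia and macrophage genes lie at 1.37 to 2.14.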

How the data were processed

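RNA of whole embryonic brains was hybridised to Affymetrix arrays of 1 colour, 2 per genotype, grouped by sample title. The authors deposited 1 table of linear signal intensities; per the submitters' processing notes, the tool was MAS5 5.0. Each array's mean after trimming 2% at either end was 1000, so arrays had been scaled by 1 factor each, which removes a shift shared by most transcripts. The annotation's genome build was not given in the sources used here. Of 45037 probe sets left after 64 controls, 34945 had 1 gene symbol, 932 several and 9160 none, and all 72 of the set matched RefSeq by gene ID. Identifiers with x or s can detect related transcripts.

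Intensities were taken as log2(signal + 16) with no further normalization, which understates changes of dim genes. Probe sets with a mean over all arrays above the 40th percentile (signal 154.6) were kept. limma 3.58.1 (R 4.3.3; lmFit, eBayes with a variance trend, Benjamini-Hochberg over 27022) gave double knockout minus control, with 2 residual and 8.33 prior degrees of freedom. A gene took its brightest probe set. The steps were tested on simulated data. The members and lists were chosen with earlier results of these data known. Named genes are all members, the targeted genes, and up to 4 of each further list by size of change. With 2 arrays against 2, an exact permutation test cannot go below p = 0.333, so none is given. Same-numbered arrays did not deviate together (r = 0.0028), so numbers were not taken to pair them. Alternatives were other normalizations, pseudocounts, filters, variance models and thresholds, each array left out, the replicate number as a block, and other ways to read a gene.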

Additional observations from a re-analysis of the deposited data

How the results depend on the processing

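The 31 genes of the set were recomputed under 16 alternative settings, 496 values in all. Of these, 442 kept their direction and side of the threshold, 27 lost a call, 16 gained one and 11 changed sign, each of the last without a call on either side. Scd1, Srebf1 and Stard4 kept their calls under all 16. The sign changes were Fdft1 with quantile normalization (-0.038), Hmgcs1 (0.023) and Idi1 (0.027) with median centring, Idi1 with a gene's probe sets averaged (0.035), and 5 genes with 1 array left out, where the log2 change ranged from -0.053 to 0.017 (Hmgcs1), -0.26 to 0.23 (Idi1), -0.089 to 0.10 (Fdft1), -0.049 to 0.17 (Msmo1) and -0.24 to 0.046 (Dhcr7). The brightest Sox4 probe set turned to -0.048 with quantile normalization, and the average of the Sox4 probe sets was -1.07. The cause of these shifts was not tested. Each gene kept its probe set when an array was left out. Choosing the brightest anew was an alternative added after seeing the data. Without control 1 it moved Mvd to another probe set (0.16, against 0.47 with the probe set kept). Without double knockout 1 it moved Acly (-0.21, against -0.16) and Thrsp (0.86, no longer called, against 1.58).

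Counts moved with the model of the variance. Without the variance trend 3114 probe sets were called, 2 genes of the set rose and 1 fell, no sterol enzyme was called, and 1 fatty acid gene fell. With a robust prior 6 genes fell, 3 of them sterol enzymes. Without the filter 3 genes rose, of which 1 was a sterol enzyme, and 0 sterol enzymes fell; with the filter at the 60th percentile 6 genes fell, 3 of them sterol enzymes. At a threshold of 0.1, 7 genes fell, 4 of them sterol enzymes, and 1 fatty acid gene rose. Median centring left 1 fatty acid gene that fell. Averaging probe sets gave 5 that fell, 4 of them fatty acid genes, and a sterol enzyme median of 0.035. Leaving out each array in turn gave 3132 to 5422 probe sets called, 2 to 3 genes that rose and 1 to 3 that fell. Among sterol enzymes 0 to 1 rose and 0 to 1 fell (median -0.05 to 0.02), and 1 to 2 fatty acid genes fell (median -0.29 to -0.11). The sterol control median was 0.18 to 0.32. With the replicate number as a block 2 sterol enzymes fell. Sc5d gained a call (-0.37, limma adjusted p = 0.0466) and Mvd lost its own (limma adjusted p = 0.0504). The labels do not say that the numbers pair these arrays, and they were not taken to do so.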
